A study of Mus musculus with 20 samples.

Results

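Whole blood of 4 female C57Bl/6 mice, numbered 305, 310, 315 and 320, taken on day 25 after inoculation, was compared with blood of the same mice taken on day 20. The comparison used 8 of the 20 arrays of the series, chosen by the day and the mouse number in the sample titles, and ran across all genes measured. Every mouse had received 10000000 Hepa1-6 cells, a mouse hepatoma line, under the skin on day 0 and carried no other treatment. The other 12 arrays held blood of the same mice before inoculation and on days 10 and 15. On these 2-colour Agilent arrays Cy5 carried the RNA of the mouse, and Cy3 carried a reference labelled alike on every array, as RNA from blood of untreated female C57Bl/6 mice. A level is therefore given as log2(Cy5/Cy3), and a change is the day 25 mean less the day 20 mean on that log2 scale. Each array was centred on its genes of like brightness, so 0 marks their bulk and not equal signal in both dyes. No blood of tumour-free mice taken on days 20 or 25 was analysed here, so time, repeated bleeding and the inoculated cells cannot be told apart. The values went against the female label of that reference, a check added after the level of Xist was seen. Xist, the RNA that silences an X chromosome in females, had a probe of 682 to 4140 Cy5 units on the 8 arrays, well above background on 8 of 8, and of 104 to 112 Cy3 units, above background on 0 of 8. The Y-linked Eif2s3y gave 113 to 121 units in Cy5, above background on 0 of 8, and 273 to 355 units in Cy3, above background on 8 of 8. Of 2 probes of the Y-linked Ddx3y, 1 was above background in Cy3 on 8 of 8 arrays and the other on 5, and in Cy5 both were on none. The 1 probe of the Y-linked Jarid1d was above background in Cy3 on 8 of 8 arrays and in Cy5 on none, and the 3 probes of Uty, also Y-linked, were above background in neither channel.

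Most cells in whole blood are red cells, and much of the RNA in such a sample comes from reticulocytes, the youngest red cells, which still hold globin, membrane and heme-pathway messages left over from the marrow. A reticulocyte loses its mitochondria and ribosomes by autophagy and by ubiquitin-driven breakdown as it matures. The remaining RNA comes from white cells and platelets, so the level of any message depends on how many cells of each type are present as well as on the RNA per cell, and these cannot be told apart in whole blood.

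The 4 arrays of each day lay on 1 slide of their own, so day and slide cannot be told apart; both slides carried the same scan date. Signal differed between the slides. The median Cy5 signal over background was 25.5 ± 3.31 intensity units on day 25 and 14.8 ± 1.54 on day 20, and that of Cy3, which held the reference RNA, was 25.4 ± 1.06 and 8.72 ± 0.773 (SD, n = 4 each). Cy5 signal was well above background at 50.3% ± 2.18 of spots on day 25 and 41.1% ± 2.72 on day 20. The median log2 ratio of the spike-in spots was -1.44 ± 0.238 on day 25 and -0.69 ± 0.116 on day 20. The share of spots well above background in Cy3 was 45.4% ± 1.38 on day 25 and 42.8% ± 1.35 on day 20 and did not pass the test (adjusted p = 0.0685, exact permutation test). In each of the 4 measures before it no array of one day overlapped with the other (exact two-sided permutation test, p = 0.0286, the smallest that 4 arrays against 4 allow; adjusted over 6 measures p = 0.0429). Log ratios of arrays of the same day correlated across genes at r of 0.495 to 0.767 for day 25 and 0.604 to 0.782 for day 20. The defining messages of blood were bright: the beta globin probe Hbb-bt gave a mean Cy5 signal of 446000 to 621000 units on day 25 and of 443000 to 544000 units on the 3 day 20 arrays kept.

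On day 25, 1353 of 15174 genes were higher (8.92%) and 1818 were lower (12%) than on day 20, at a Benjamini-Hochberg adjusted p under 0.05 in limma's moderated test, which is the threshold behind every "rose" and "fell" here. The falls were the larger changes. At least a 2-fold fall was found for 181 genes and at least a 2-fold rise for 2, S100a9 and Rbm3, while the median change over all genes was 0.042. Of the genes past the threshold, 1293 of those higher and 1800 of those lower changed in the same direction in every mouse measured on both days. The arrays of both days did not overlap for 1097 of the higher genes, for 1415 of the lower genes and for 24.7% of all genes tested. With the mouse as a block the counts were 1570 higher and 1975 lower in the fit of 20 arrays and 1580 and 2089 in a fit of the 8 arrays alone. Below, block values are given for some genes whose call they change and where they move a count by over 1.5 times. The values are relative to the bulk of genes on an array. When loess, the curve that removes intensity-dependent dye bias, was replaced by the median of each array, the median of all genes moved to 0.33 and the split became 7752 higher and 276 lower, so that 3.44% of the genes past the threshold were lower in place of 57.3%. With the spike-in spots as zero the median of all genes moved to 0.79. Under both settings the medians of the globin, membrane, heme, ubiquitin, mitotic and autophagy lists described below stayed under that of all genes, while those of the heme, mitotic and autophagy lists lay above 0.

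**Figure D1:**
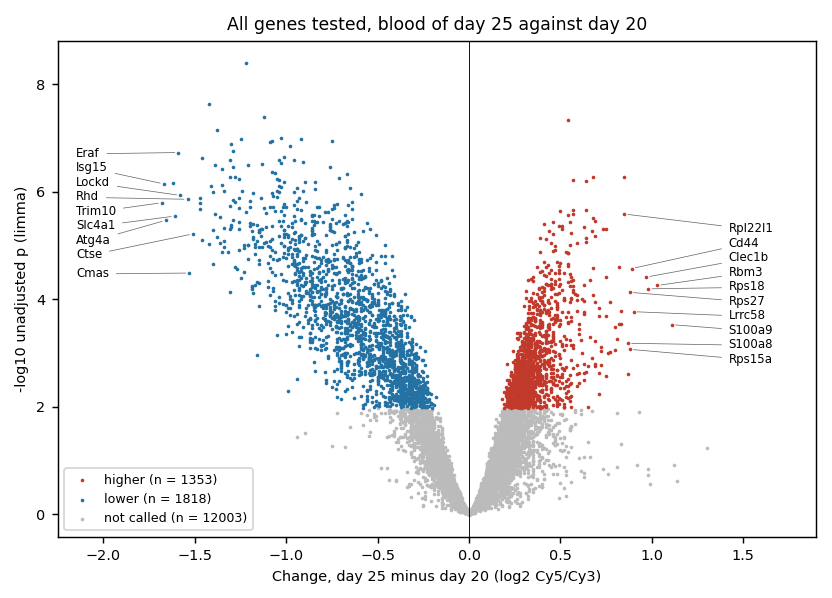
Change of each of 15174 genes between day 25 and day 20 (horizontal, log2) against the unadjusted p of limma (vertical, -log10), with genes past the adjusted threshold in red where higher and in blue where lower. The genes named are the 10 highest and 9 of the 10 lowest of the rule given in the text; the lower genes reach past -1.5 while S100a9 at 1.11 is the highest gene named.

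The 10 lowest genes, taken by a rule that asked for a gene symbol, a call, the same sign in all mice, signal above background and the same sign under both other normalizations, ranged between -1.68 and -1.51. Trim10, an erythroid protein of the tripartite motif family needed for terminal red cell maturation, led them. Trim10 had log2 levels of -0.9, -0.085, -0.79 and -0.41 on day 25, against 1.08, 0.92, 1.66 and 0.88 on day 20, in mice 305, 310, 315 and 320. Every day 25 array lay below 0 and every day 20 array above it. These sides are those after normalization, since as scanned the Cy5 signal of Trim10 was above its Cy3 signal on both days. On day 25 its mean Cy5 signal was 1930, 2410, 1710 and 1590 units and its Cy3 signal 1310, 1290, 1210 and 1040 units. The change of Trim10 was -1.68 ± 0.253 (SE, limma, adjusted p = 0.000311), a 3.21-fold higher mean on day 20. Slc4a1, the anion exchanger known as band 3 that anchors the red cell skeleton, had levels of -1.34, -0.62, -1.25 and -0.88 on day 25, against 0.65, 0.52, 0.94 and 0.23 on day 20. The groups were again on opposite sides of 0 after normalization (change -1.61 ± 0.252 SE, limma, adjusted p = 0.000359). The mean Cy5 signal behind Slc4a1, as scanned, was 14100, 18800, 13900 and 14700 units on day 25, against 22400, 25500, 31300 and 27200 units on day 20. Its Cy3 signal was 12100, 13400, 12100 and 11600 units on day 25, against 12400, 10800, 11100 and 12800 units on day 20.

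Eraf, the older symbol of the chaperone that keeps free alpha globin soluble, had levels of -0.97, -0.4, -1 and -0.75 on day 25, against 0.75, 0.79, 1.24 and 0.46 on day 20. These groups did not overlap (change -1.59 ± 0.207 SE, limma, adjusted p = 0.000189). Isg15, a ubiquitin-like modifier best known as an interferon-induced gene, had levels of -1.41, -0.71, -0.73 and -0.62 on day 25, against 0.45, 0.82, 1.11 and 0.83 on day 20. The change of Isg15 was -1.67 ± 0.238 (SE, limma, adjusted p = 0.000236), with mouse 305 lowest on both days. Rhd, the Rh blood group protein of the red cell membrane, fell by 1.54. Atg4a, a protease that processes Atg8-family proteins during autophagy, fell by 1.66. The others named were Lockd, a non-coding RNA next to the cell cycle inhibitor Cdkn1b, at -1.58, Cmas, which activates sialic acid, at -1.53, and Ctse, which encodes the aspartic protease cathepsin E, at -1.51. Leaving out any 1 array of either day ended none of these 10 calls, and without loess, on the median alone, their changes were -1.06 to -0.82.

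The promoters of the lowest genes are shown because these genes moved together and because the letters AGATAA are those of a binding motif of the erythroid factor Gata1. RefSeq promoters (build GRCm38.p6) were at hand for 6 of the 10 lowest genes, and AGATAA on either strand stood in 3 of them within 250 bases before the start. The 200 bases before the start of these 3 genes, all on the plus strand, are given with the motif, or its reverse complement TTATCT, in capitals.
Trim10, chr17:36869374-36869573: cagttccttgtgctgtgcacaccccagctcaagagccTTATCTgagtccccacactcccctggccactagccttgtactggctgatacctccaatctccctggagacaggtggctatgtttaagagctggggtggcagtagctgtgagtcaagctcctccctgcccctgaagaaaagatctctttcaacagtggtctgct
Rhd, chr4:134864336-134864535: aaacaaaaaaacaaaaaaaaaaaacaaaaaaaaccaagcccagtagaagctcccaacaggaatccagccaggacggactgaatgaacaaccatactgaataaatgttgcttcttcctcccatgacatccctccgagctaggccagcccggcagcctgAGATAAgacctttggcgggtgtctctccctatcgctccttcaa
Atg4a, chrX:140953645-140953844: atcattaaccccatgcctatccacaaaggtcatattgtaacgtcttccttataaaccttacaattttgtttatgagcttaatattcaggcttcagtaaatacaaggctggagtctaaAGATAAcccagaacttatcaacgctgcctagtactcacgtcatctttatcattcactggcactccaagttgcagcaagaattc
AGATAA stood in 682 of 10154 promoters of genes tested (6.72%), in 100 of 1201 of those that fell (8.33%), in 48 of 969 of those that rose (4.95%), in 7 of 42 of the erythroid, red cell membrane and heme lists (16.7%), in 2 of 9 of the 10 highest genes (22.2%) and in 2 of 22 of the mature neutrophil list (9.09%). CCACACCC, a motif of the erythroid factor Klf1 that shares no overlap with AGATAA, was searched on both strands as well and stood in 343 of the 10154 promoters (3.38%), in 34 of 1201 of genes that fell (2.83%), in 43 of 969 of genes that rose (4.44%) and in 1 of those 42 (2.38%). These matches describe the letters of the windows and were not tested.

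The list of globins and late erythroid markers, called the globin list here, and the red cell membrane list held the largest shares of falls among the 42 gene lists examined. Some genes count in more than 1 list. Of the globin list, Slc4a1 is also in the membrane list, Ube2l6 and Ube2o in the ubiquitin list and Bnip3l in the autophagy list. Of 24 globin and late erythroid genes tested, 16 fell, 1 rose and 7 did not pass the test, with a median change of -0.77 against 0.042 for all genes. In Cy5 alone, each array's Cy5 signals quantile-normalized without the reference, 11 fell and 1 rose, with a median of -0.4. Hemgn, a nuclear protein of erythroid cells, changed by -1.26. The adult beta globin Hbb-bt was called lower, at -0.7 ± 0.232 (SE, limma, adjusted p = 0.0381), with levels of -0.39, 0.27, 0.015 and 0.65 on day 25, against 0.6, 0.77 and 1.13 in mice 310, 315 and 320 on day 20, where the spot of mouse 305 had been left out. These Hbb-bt groups overlapped by the array of mouse 320 on day 25, which was also saturated in Cy5, and RNA of near-identical globin copies may bind this probe. Its Cy5 signal was not lower on day 25, while its Cy3 signal was 188000, 187000, 178000 and 143000 units on day 25, against 140000, 143000 and 106000 units on day 20. In Cy5 alone, where quantile normalization levels the brightest probes between arrays, the change of Hbb-bt was 0, and its call ended when any of 5 of the 8 arrays was left out. Hba-a1, the alpha globin, had levels of -0.26, 0.62, 0.35 and 0.92 on day 25, against 0.34, 0.88 and -1.04 in mice 305, 315 and 320 on day 20. Its groups overlapped and the fit did not call it (change 0.35 ± 0.359 SE, limma, adjusted p = 0.528). The lowest Hba-a1 value came from a spot saturated in Cy5 on day 20, and the change without that array was -0.2.

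Of the other late erythroid genes, the embryonic globins Hbb-bh1 and Hbb-y, which resemble the adult genes in sequence, changed by -1 and -0.94. Among erythroid transcription factors, named after their values were seen, directions differed. Lmo2, a partner of Tal1 and Gata1 that stood in the progenitor list, fell by 0.94 ± 0.164 (SE, limma, adjusted p = 0.000607). Tal1 rose by 0.53 ± 0.158 (SE, limma, adjusted p = 0.0221), while Gata1 at -0.31 (adjusted p = 0.0526), Klf1 at -0.3, Nfe2 at 0.022 and the erythropoietin receptor Epor at -0.092 did not pass the test. No array left out changed the count of falls on this list beyond a range of 14 and 17.

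Red cell membrane and blood group genes fell as well, with 12 of 20 lower, none higher and a median change of -0.92 (-0.85 in Cy5 alone). Besides Slc4a1 and Rhd they included the skeleton genes Ank1 at -1.36, Sptb at -1.08, Epb42 at -1.05 and Epb41 at -0.98, the tropomodulin Tmod1 at -1.09, the actin bundler Dmtn at -0.87, and the blood group genes Kel at -1.34 and Rhag at -0.58. Probes of a gene did not always agree: the brightest Ank1 probe changed by -1.36, its others by -1.33, -0.28 and -0.57, and for Sptb another probe changed by 0.061. The median of the list fell in each mouse, by 0.92, 0.74, 1.33 and 0.62 in mice 305, 310, 315 and 320. Array medians were -0.6 to -0.3 on day 25 and 0.26 to 0.65 on day 20, with no overlap. In the block fit of the 8 arrays 1 member rose.

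Among genes of heme synthesis and breakdown, 7 of 16 fell and none rose, with a median of -0.37. They included Urod at -0.91, Ppox at -0.75 and Fech at -0.78, enzymes of the later steps of the pathway, the glycine importer Slc25a38 at -0.62, its relative Slc25a39 at -0.5, and the biliverdin reductase Blvrb at -1.35. Alas1, the housekeeping first enzyme, was at 0.22 (adjusted p = 0.135), and the erythroid form Alas2 was on the array but had too few measured arrays to be tested. Of 19 iron genes 8 fell and 1 rose, among them the iron-sulphur cluster genes Glrx5 at -1.09 and Iscu at -0.99 and the mitochondrial iron importer Slc25a37 at -0.7. The iron count dropped to 3 lower without day 20 of mouse 315, without day 20 of mouse 320, without day 25 of mouse 305 or without day 25 of mouse 315, and to 5 without day 20 of mouse 310. With the mouse as a block the single rise became 2 in the fit of 20 arrays and 4 in that of the 8 arrays. In Cy5 alone 3 iron genes fell. The iron list also lay 0.056 above all genes on the median alone.

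**Figure D2:**
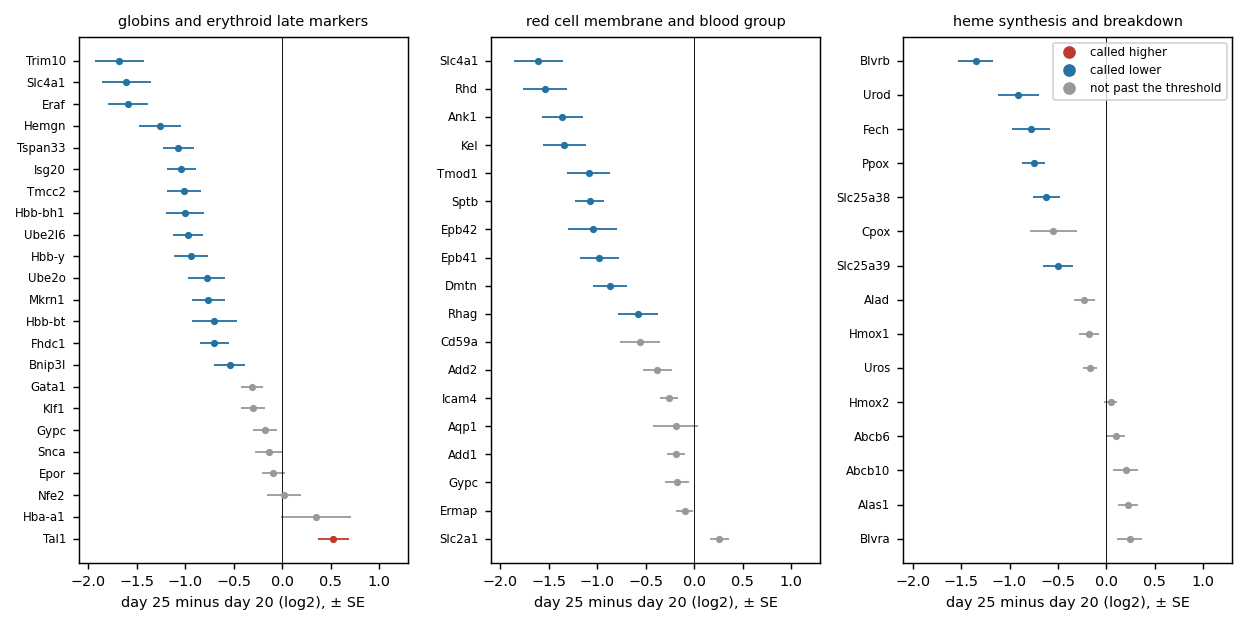
Change between day 25 and day 20 (log2, point) with its standard error (bar, limma) for the reported genes of the globin and late erythroid, red cell membrane and heme lists, in blue where lower, in red where higher and in grey where not past the threshold. Most members of the first 2 panels lie left of 0, Trim10 lowest at -1.68, and Tal1 at 0.53 is the one red point.

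Of 28 ubiquitin conjugation genes 16 fell and 1 rose, with a median of -0.65 (11, 4 and -0.31 in Cy5 alone); the rise was lost with the mouse as a block in the fit of the 8 arrays. The F-box proteins Fbxo9 and Fbxo7 changed by -1.46 and -1.01, the ubiquitin scaffold Cul4a by -1.3, the conjugating enzymes Ube2h, Ube2l6 and Ube2o by -1.06, -0.97 and -0.78, and the polyubiquitin gene Ubb by -0.84. Of 27 autophagy and mitochondrial clearance genes 12 fell and 2 rose, with Wipi1 at -1.06, Atg12 at -0.86, the mitochondrial kinase Pink1 at -0.85, Becn1 at -0.84 and the mitophagy receptor Bnip3l at -0.54 among the falls, while the median of the list was -0.071. Gabarapl1 rose by 0.59 and Atg16l1 by 0.21, a pair of rises that became 1 or none without any of 5 of the 8 arrays. The brightest Map1lc3b probe changed by -0.78 and another by 0.2.

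Antioxidant enzymes were divided, with 9 of 26 lower, 1 higher and a median of 0.03. Those that fell included catalase, Cat, at -1.14, the red cell peroxiredoxin Prdx2 at -1.25, the glutathione peroxidase Gpx1 at -0.86 and Gclm of glutathione synthesis at -1.16. Prdx6 rose by 0.82 ± 0.188 (SE, limma, adjusted p = 0.00407), and with the mouse as a block 2 members rose. Of 58 oxidative phosphorylation genes 16 fell and 7 rose, among them the copper chaperone Cox17 at -1.34 and the ATP synthase subunits Atp5b at -0.64 and Atp5g2 at 0.57. Without day 20 of mouse 315 the rises of that list numbered 4. Another probe of Atp5g2 changed by 0.025, so its rise rests on 1 probe. The survival gene Bcl2l1 of the BCL2 family, whose long form keeps late erythroid cells alive, changed by -1.2 ± 0.184 (SE, limma, adjusted p = 0.000321).

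Of 21 mitotic genes tested 7 fell and none rose, with a median of -0.15 (8 fell, with a median of -0.049, in Cy5 alone): Ube2c at -1.29, Ccna2 at -1.23, Nusap1 at -1.2, Ccnb2 at -0.99, the proliferation marker Mki67 at -0.94, Birc5 at -0.69 and the kinesin Cenpe at -0.35. Ccnb2, a mitotic cyclin, had levels of -0.53, -0.3, -0.45 and -0.42 on day 25, against 0.23, 0.24, 1 and 0.76 on day 20. These groups did not overlap (limma, adjusted p = 0.000614). DNA replication genes did not share this direction, with Lig1 at -1.01 and with Pcna at 0.25, Mcm6 at 0.25 and Rfc4 at 0.29 above it, 3 rises that became 1 or none when any of 7 of the 8 arrays was left out. The call of Rfc4 also ended with the mouse as a block in the fit of the 8 arrays.

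Interferon-stimulated genes showed no common direction. Of 33 tested 5 fell and 1 rose, and the median of 0.043 lay beside the 0.042 of all genes. Besides Isg15 these were the antiviral Rsad2 at -1.19, the interferon regulatory factor Irf7 at -1.18, the oligoadenylate synthetase Oas3 at -0.93 and the membrane protein Ifitm3 at -0.51. Ifi27l2a rose by 0.71 ± 0.153 (SE, limma, adjusted p = 0.00269). Mx1 at -0.051 and Ifit1 at -0.34 did not pass the test. In the block fit of the 8 arrays 8 fell and 2 rose.

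**Figure D3:**
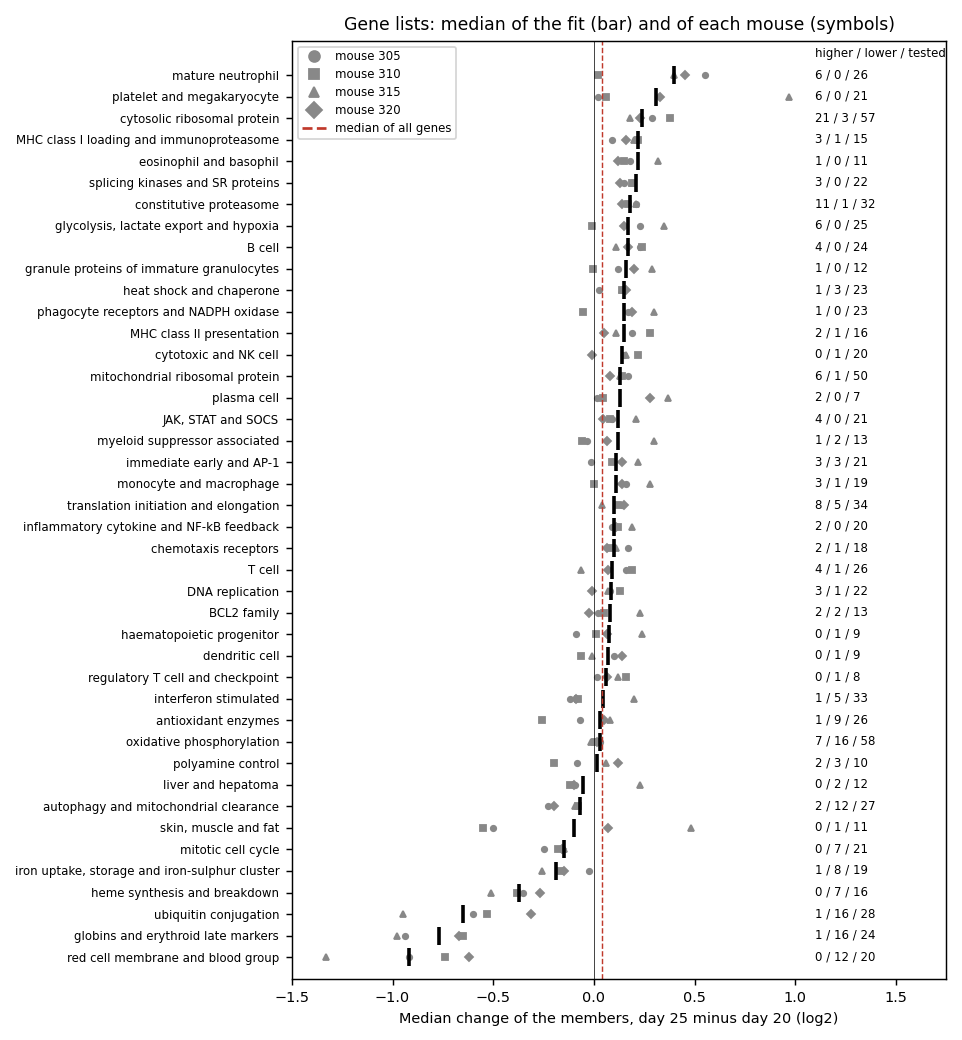
Median change of the tested members of each of 42 gene lists between day 25 and day 20 (log2), from the fit (black bar) and in each mouse (grey symbols), with the median of all genes at 0.042 as a dashed line and the members higher, lower and tested at the right. The red cell membrane and the globin lists lie lowest at -0.92 and -0.77, and the mature neutrophil list highest at 0.4.

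The highest genes changed less. S100a9, which with S100a8 forms calprotectin, the main cytosolic protein of neutrophils, led them. S100a9 had levels of 0.63, 0.26, -0.2 and -0.19 on day 25, against -0.73, -0.6, -1.2 and -1.42 on day 20. The groups did not overlap and the change was 1.11 ± 0.257 (SE, limma, adjusted p = 0.00414), a 2.17-fold higher mean on day 25. Its mean Cy5 signal as scanned was 126000, 74300, 66800 and 59700 units on day 25, against 22700, 31900, 17800 and 20800 units on day 20. S100a8 had levels of 0.52, 0.23, -0.04 and -0.012 on day 25, against -0.73, -0.13, -0.9 and -1.03 on day 20, again without overlap (change 0.87 ± 0.217 SE, limma, adjusted p = 0.00735). For both genes mouse 305 was highest on day 25.

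Of 26 mature neutrophil genes 6 rose and none fell (23.1% higher), with a median of 0.4. Besides the S100 pair they included Slpi, a protease inhibitor, at 0.59, the lectin receptor Clec4d at 0.54 and the selenoprotein Msrb1 at 0.47. The chemokine receptor Cxcr2 at 0.58 (adjusted p = 0.0536), the receptor of granulocyte colony-stimulating factor Csf3r at 0.45, Retnlg at 0.42, Hp at 0.5, Mmp9 at 0.17 and Mmp8 at 0.2 did not pass the test, and neither did Adam8 at 0.39 (adjusted p = 0.07), although Adam8 passed with the mouse as a block in the fit of the 8 arrays. The 6 rises became 2 without day 20 of mouse 315, without day 20 of mouse 320 or without day 25 of mouse 305, and 1 without both arrays of mouse 305. In the fit of the 8 arrays with the mouse as a block, 14 rose. S100a8 and S100a9 stayed past the threshold with any 1 array left out, while without both arrays of mouse 305 at most 1 of them did. The median of the list changed by 0.55, 0.02, 0.4 and 0.45 in mice 305, 310, 315 and 320. Granule protein genes of immature granulocytes did not rise as a group: Lyz2 was higher by 0.71, a call that ended when any of 5 of the 8 arrays was left out, and 11 of 12 did not pass the test, with Camp at 0.11, Ngp at 0.053 and Ltf at -0.32. In the block fit of 20 arrays 2 of the 12 rose.

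Clec1b, the platelet receptor for podoplanin also called CLEC-2, had levels of -0.57, -0.37, -0.21 and -0.6 on day 25, against -1.39, -0.9, -1.85 and -1.48 on day 20. The groups did not overlap (change 0.97 ± 0.186 SE, limma, adjusted p = 0.00122). Of 21 platelet and megakaryocyte genes 6 rose and none fell, with a median of 0.31: Clec1b, the receptor Treml1 at 0.8, the chemokine precursor Ppbp at 0.76, von Willebrand factor, Vwf, at 0.63, Sh3bgrl2 at 0.56 and Rgs18 at 0.55. Pf4 at 0.53 (adjusted p = 0.0705), Gp9 at 0.49 and Itga2b at -0.52 did not pass the test. The size differed between mice, with list medians of 0.021, 0.06, 0.97 and 0.33 in mice 305, 310, 315 and 320, and 3 rises were left without day 20 of mouse 315 or without day 25 of mouse 315. With the mouse as a block 1 member fell in the fit of 20 arrays and 2 in that of the 8 arrays.

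Ribosomal protein genes made up much of the remaining top. Rps18 had levels of 0.28, 0.5, 0.19 and 0.18 on day 25, against -0.32, -0.71, -0.89 and -0.83 on day 20. Its groups did not overlap (change 0.98 ± 0.196 SE, limma, adjusted p = 0.00163). Of 57 cytosolic ribosomal protein genes 21 rose and 3 fell, with a median of 0.24 (0.53 in Cy5 alone, where 27 rose and none fell), and Rps27 at 0.88, Rpl22 at 0.68 and Rpl5 at 0.63 followed. Among the falls were Rplp0 at -0.4 and Rpl10 at -0.27. The 21 rises became 9 without day 20 of mouse 315, 12 without day 20 of mouse 320, 12 without day 25 of mouse 305 and 10 without day 25 of mouse 310, and the 3 falls became 1 or none without any of 4 arrays, those of mice 315 and 320 on day 20 and of mice 305 and 315 on day 25. Ribosomal protein genes have many processed copies, which a probe may not tell apart. The other high genes of the rule were Rps15a at 0.88, Rpl22l1 at 0.85, the cold-inducible RNA-binding protein Rbm3 at 1.03, the hyaluronan receptor Cd44 at 0.89 and Lrrc58 at 0.9. Another probe of Rbm3 changed by 0.058, of Lrrc58 by -0.012, of Cd44 by 0.32 and of Rps18 by 0.69, so the rises of Rbm3 and Lrrc58 rest on 1 probe each.

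**Figure D4:**
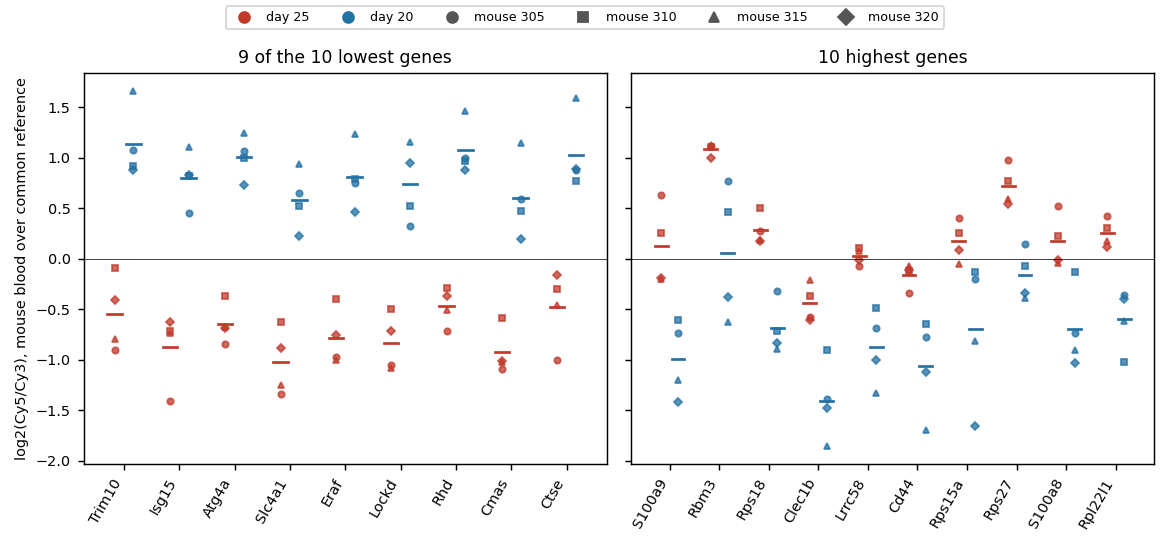
Level of 9 of the 10 lowest and of the 10 highest genes of the rule, log2(Cy5/Cy3), in each mouse (symbol) on day 25 (red) and day 20 (blue), with the mean of each day as a bar. In both panels the 4 day 25 arrays and the 4 day 20 arrays of a gene do not overlap.

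Of 32 constitutive proteasome genes, which degrade ubiquitin-tagged proteins, 11 rose and 1 fell, Psmd13 by 0.55 and Psmb2 by 0.47 most, and Psmd4, the ubiquitin receptor of the particle, changed by -1.13 with another probe at -0.083. The 11 rises numbered between 2 and 7 without day 20 of mouse 310, 315 or 320 or without day 25 of mouse 305, 310 or 315, and were 2 without day 25 of mouse 305. Of 25 genes of glycolysis, lactate export and hypoxia 6 rose and none fell: the glycolytic genes Aldoa at 0.62, Ldha at 0.43, Hk2 at 0.4, Gpi1 at 0.39 and Pgk1 at 0.2, and the kinase Pdk1 at 0.32. The lactate exporter Slc16a3 was at 0.038 (adjusted p = 0.86). Signal transducers Stat6, Stat5b, Stat3 and Stat4 rose by 0.29, 0.29, 0.28 and 0.27, while the feedback inhibitor Socs3 was at -0.15 (adjusted p = 0.402). These 4 rises of 21 genes of the JAK and STAT list became 2 without day 20 of mouse 315 or without day 20 of mouse 320. In the fit of the 8 arrays with the mouse as a block the call of Stat6 ended, 1 member of this list fell and 1 member of the glycolysis list fell.

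Most monocyte and lymphocyte markers did not pass the test, although the shares that rose were above the 8.92% of all genes. They were 15.8% of the monocyte and macrophage list, 16.7% of the B cell list and 15.4% of the T cell list. The shares that fell were 5.26%, 0% and 3.85%, against 12% of all genes. Of 19 monocyte and macrophage genes Ctss rose by 0.52, F13a1 by 0.51 and Adgre4 by 0.47 and Ace fell by 0.36, and those rises became 1 or none when any of 5 of the 8 arrays was left out; Csf1r at 0.011 and Ccr2 at 0.11 did not pass the test. In the block fit of the 8 arrays 6 of the 19 rose. Of 24 B cell genes 4 rose and none fell: Blnk at 0.52, Ms4a1, which encodes CD20, at 0.48, the chemokine receptor Cxcr5 at 0.46 and Bank1 at 0.36. That count ranged between 1 and 8 as single arrays were left out: it was 8 without day 20 of mouse 305, 2 without day 25 of mouse 310, and 1 without day 20 of mouse 310, 315 or 320 or without day 25 of mouse 305. The count was 8 with the mouse as a block in the fit of 20 arrays and 9 in that of the 8 arrays. Another probe of Bank1 changed by -0.14. Cd79a, the signalling chain of the B cell receptor, was at -0.23 (adjusted p = 0.0698), and Cd79b at 0.51. The immunoglobulin heavy chain Ighm rose by 0.71 and the joining chain Jchain by 0.57. The call of Ighm ended without day 20 of mouse 315 or without day 25 of mouse 305. Of 26 T cell genes 4 rose, among them Il7r by 0.57, Thy1 by 0.56 and Cd8b1 by 0.41, and Cd3e fell. Cd3e had levels of -0.24, -0.23, -0.13 and 0.16 on day 25, against 0.33, 0.52 and 0.55 in mice 310, 315 and 320 on day 20. The groups did not overlap (change -0.58 ± 0.115 SE, limma, adjusted p = 0.00166), and the day 20 spot of mouse 305 lay in a bright patch of its array and was left out. The other chains of the same receptor complex were at 0.2 for Cd3d and 0.13 for Cd3g, and Cd4 at -0.044 and Cd8a at 0.096 did not pass the test.

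Markers of cells that could carry RNA into blood were compared between the days as well. Of the liver and hepatoma list 16.7% fell and of the skin, muscle and fat list 9.09%, against 12% of all genes. Of 12 liver and hepatoma genes tested, 2 fell, Fgb at -0.72 and Tat at -0.57, and none rose. Albumin, Alb, was above background on 1 of 4 arrays of each day and at -0.22 (adjusted p = 0.227), the fetal liver protein Afp at 0.11 (adjusted p = 0.417), Gpc3 at 0.16 and H19 at -0.038. Of 11 skin, muscle and fat genes Krt1 fell by 0.97 and none rose (2 fell with the mouse as a block in the fit of 20 arrays). The list medians were -0.052, 0.14, 0.62 and 0.13 on day 25, against 0.2, 0.56, 0.21 and 0.23 on day 20, so that 7 of the 8 arrays lay above 0. The epithelial keratin Krt5 had levels of 0.21, 0.76, 2.98 and 1.66 on day 25, against 1.81, 0.39 and 0.56 in mice 310, 315 and 320 on day 20, and did not pass the test. The part of such cells in the blood values was not tested.

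The low red cell messages of day 25 came after higher levels at the earlier bleeds. Mean array medians of the globin list were 0.11 on day 0, 0.62 on day 10, 0.72 on day 15, 0.34 on day 20 and -0.4 on day 25, and those of the membrane list 0.21, 0.78, 0.76, 0.39 and -0.43. The globin medians of the mice were -0.72 to -0.13 on day 25 and -0.25 to 0.52 on day 0, so these overlapped. The neutrophil list stood at 0.9 on day 0, at -0.03, -0.0086 and -0.19 on days 10, 15 and 20 and at 0.11 on day 25. Its range of -0.048 to 0.38 on day 25 lay below that of 0.54 to 1.26 on day 0. Each of the 5 days lay on a slide of its own, and those of days 0 and 10 had a scan date other than that of day 25. The median Cy3 signal over background was 79.6 to 110 units on the day 0 arrays and 24.1 to 26.4 units on the day 25 arrays. Day and slide cannot be told apart in this course either.

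**Figure D5:**
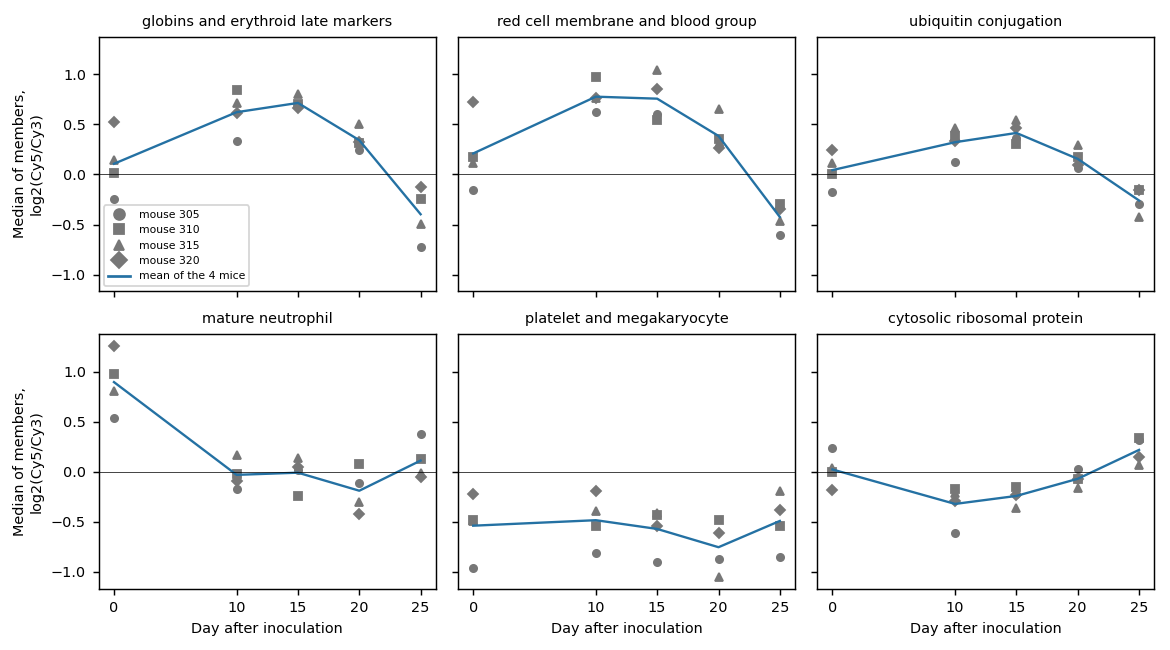
Median level of the tested members of 6 gene lists, log2(Cy5/Cy3), in each mouse (symbols) over the days after inoculation, with the mean of the 4 mice as a line. The 3 upper lists, of red cell and ubiquitin genes, peak on days 10 to 15 and are lowest on day 25; the neutrophil and ribosomal lists are higher on day 25 than on day 20.

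The step of 5 days between days 20 and 25 was set against the step between days 10 and 15, which shares no array with it. In the difference of the 2 steps, days 20 to 25 less days 10 to 15, 724 genes were higher (4.77%) and 1535 lower (10.1%), and on the step of days 10 to 15 by itself 389 were higher (2.56%) and 98 lower (0.646%). Of the 1818 genes that fell on day 25, 1249 also fell more than in the earlier step, and of the 1353 that rose, 492 rose more. The difference contains the same change between days 20 and 25 that chose these genes, so part of this overlap is built in. Of the globin list 14 of 24 and of the membrane list 9 of 20 fell more, and of the neutrophil list none of 26 passed this test. Carhsp1, a cold-shock domain protein that binds RNA, stood out with levels of -0.46, -0.15, -0.6 and -0.13 on day 25, against 0.69, 0.75, 1.08 and 1 on day 20, and a difference of steps of -1.5 (limma, adjusted p = 0.000506). Xist, whose Cy3 signal was not above background, had levels of 4.56, 4.38, 4.08 and 3.85 on day 25, against 3.64, 3.66, 3.36 and 3.82 on day 20, and a difference of 1.48 (adjusted p = 0.000616). Days 10 and 15 also lay on a slide each, that of day 10 with another scan date and that of day 15 with another grid file, and with normexp fitted on all spots the counts were 116 higher and 160 lower.

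The reference channel was compared between the slides as well, after quantile normalization, which levels the brightest probes between arrays. Cy3 is the lower part of every ratio, so a change in it enters the ratio. This comparison does not measure Cy5, and it cannot show a shift of the brightest probes, such as those of globin. In Cy3 alone, 197 genes were higher (1.3%) and 169 lower (1.11%), together 2.41%, on the day 25 slide than on the day 20 slide, and the median absolute change was 0.06 in Cy3 and 0.15 in the comparison of mice. The medians of the globin, membrane and neutrophil lists in Cy3 were -0.0081, 0.019 and 0.025. For 207 genes both were past the threshold, 144 of them with the same sign. Saa1, an acute phase protein that fell by 0.66 in the comparison, was one of these, with a Cy3 change of -0.4 (limma, adjusted p = 0.0251). Csrnp1, which encodes a nuclear protein, was another, at -0.6 and at -0.37 in Cy3 (limma, adjusted p = 0.00313). A different probe of Csrnp1 changed by 0.016 in the comparison, so its fall rests on 1 probe.

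Dim genes gave bounds only. Cy5 was above background on no array of day 20 but on some of day 25 for 1216 genes, of which 25 rose and 3 fell, and on no array of day 25 but on some of day 20 for 81 genes, of which 1 fell. The day 25 slide was the brighter one, with Cy5 well above background at 50.3% of spots against 41.1% on day 20. The part of that brightness in the counts of 1216 and 81 was not tested. Exoc3l4 was at least 1.2-fold, BI662359 at least 1.17-fold and Muc5b, a gel-forming mucin, at least 1.06-fold higher on day 25 (limma, adjusted p = 0.00114, 0.00597 and 0.0113), each bound set from the mean of the dim day's signal or its detection floor where that was higher. Sall1 was at least 1.22-fold lower on day 25 (adjusted p = 0.025), and for Map3k9 and Cyp2c65, not well above background on day 20, no fold is given. The call of Muc5b ended without day 25 of mouse 315, and that of Sall1 without day 20 of mouse 310 or 320 or day 25 of mouse 310, and with the mouse as a block in the fit of the 8 arrays.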

How the data were processed

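Blood went into RNAlater, RNA was isolated by RiboPure-Blood and labelled by QuickAmp, per the labels' protocols. The deposited intensities are, per the file headers, each spot's mean signal with the median background around it, for Cy5 and for Cy3, made by the scanner's software (Agilent Feature Extraction, version 9.1.3.1 per the submitters' processing notes). Per the file headers that software also made the deposited log10 ratio of Cy5 over Cy3, dye-normalized, and the deposited value matrix equalled it for 900360 of 900360 values within 1e-6; its columns all have a median of 0, and scale, centring and direction are thereby known. That ratio, turned to the log2 scale, served as an alternative. Anything further the authors did is not given here.

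From the intensities, background was corrected with normexp (offset 50) and each array normalized with loess in limma 3.58.1 (R 4.3.3, statmod 1.5.0, figures with matplotlib 3.10.9), control spots at weight 0 and no scaling between arrays. Spots marked non-uniform, spots more than 30 units under their local background, which disturbed the normexp fit, and 494 spots of a bright patch on the day 20 array of mouse 305 were left out; the last 2 exclusions were chosen after seeing the data. Probes needed Cy5 well above background on 4 or more of 20 arrays and a measured value on 3 or more arrays per day, which left 20927 probes. The brightest probe stood for each of 15174 genes; 4333 genes had several, and in 32 genes 2 probes were called in opposite directions. Of 41174 probes 56.8% were named by accession, 16.4% by symbol, 7.09% by synonym in RefSeq's mouse genes (GRCm38.p6) and 19.8% kept the name in the file.

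The fit in limma held all 20 arrays with 5 day means and no block, with Benjamini-Hochberg adjustment over all genes. The mouse numbers mark the same animal on both days and so pair the samples by label; deviations of same-numbered arrays from the day means correlated at 0.352, -0.0927, -0.295 and 0.441 in mice 305, 310, 315 and 320. Nothing else is said of separate extractions, and with 4 arrays a day their number limits precision. Named genes were the 10 highest and 10 lowest by the rule in the text, up to 4 called members of each list with the lowest p, 12 genes taken whatever their values (2 of them, Alas2 and Ly6g, could not be tested), the 5 genes with the lowest p in each direction of the difference of steps, and up to 3 bounds a direction; other list members are named from the called members or as defining markers after their values were seen. The members, lists and rules were chosen with earlier results of these data known, so no list is independent evidence. Some named members of these lists are not reported here. The fit was also run on simulated data of independent genes with known changes. Those data held no slide or mouse effect and passed through no normalization, so they cannot speak to these. Alternatives covered background, normalization, filters, probes, blocks and arrays left out.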

Additional observations from a re-analysis of the deposited data

Results flagged for a closer look

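Of 328 groups of 4 arrays of the named genes, 12 held an array set apart from the other three by Dixon's 95% critical value, fewer than the 1 in 20 groups that chance flags. On day 20 the array of mouse 305 stood apart for Becn1 (level -0.3, others 0.11 to 0.13), Blnk (-0.26, others -0.68 to -0.66), Il7r (-0.28, others 0.071 to 0.14) and Srsf7 (-0.014, others -0.51 to -0.47). Mouse 315 stood apart on day 20 for Ctse (1.59, others 0.77 to 0.89) and Sptb (0.88, others 0.33 to 0.39), and on day 25 for Rps19 (-0.11, others 0.19 to 0.21). The other day 25 arrays were those of mouse 305 for Cd44 (-0.34, others -0.12 to -0.073) and Isg15 (-1.41, others -0.73 to -0.62), of mouse 310 for Cmas (-0.58, others -1.09 to -1.01), and of mouse 320 for Rbm3 (1, others 1.11 to 1.13) and Tnfrsf4 (0.19, others -0.24 to -0.19).

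The change over days 20 to 25 differed from that over days 10 to 15 for 724 genes in the higher and 1535 in the lower direction in limma's test of the difference; given here are the 5 with the lowest p in each. The difference was 1.48 for Xist, 0.8 for Atp5g2, 0.77 for Dnajc10, 0.64 for Srf and 0.54 for Nasp, and it was -1.5 for Carhsp1, -1.29 for Csrnp1, -1.23 for Klk1b4, -1.13 for Saa1 and -0.96 for Trank1. For Csrnp1 and Atp5g2 another probe changed by 0.016 and 0.025 between days 20 and 25. The 4 days lay on 4 slides, and the part of the slides in these differences was not tested.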

How the results depend on the processing

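Day and slide cannot be told apart, no dye was swapped, values are relative to the bulk of each array and dim genes have bounds only; the cause of the shifts below was not tested unless given. For day 25 against day 20 the genes higher numbered 2141 with no background correction, 885 with negative control spots as background, 2382 with scaling between arrays, 2153 in Cy5 alone, 853 without both arrays of mouse 305, and 691 to 1292 with 1 array left out (691 without day 20 and 860 without day 25 of mouse 315). Higher and lower genes numbered 7752 and 276 with each array's median replacing loess, and 12939 and 55 with spike-in probes as zero, whose amounts the labels do not give and which moved the median of all genes to 0.79. With the median, less the shift of all genes, the globin list stood at -0.65 and the membrane list at -0.75. With 1 array left out 1378 to 1908 genes were lower.

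Of 889 list genes 119 were higher and 138 lower; higher ones numbered 189 with no background correction, 200 with scaling, 593 (39 lower) with the median, 729 (18 lower) with spike-in probes, 76 without mouse 305 and 48 to 125 with 1 array left out (48 and 66 without day 20 of mice 315 and 320, 70 and 71 without day 25 of mice 305 and 310). In the difference of steps, higher and lower genes numbered 6522 and 85 with the median, 1224 higher with the scanner ratio, 116 and 160 with normexp on all spots, and 441 to 786 higher with 1 array left out (441 without day 15 and 473 without day 20 of mouse 315). Cy3 gave 403 higher with common median scaling. With the replicate block the counts were 1570 and 1975 (20 arrays) and 1580 and 2089 (8 arrays), and 894 and 1757 for the difference of steps, none moved by over 1.5 times. List counts that moved further and some calls that changed stand beside the lists described above. Of the genes taken by the naming rules, the block ended 1 call in the fit of 20 arrays. In that of the 8 arrays it ended 7 and added 1. Genes named after their values were seen are not in these counts.

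These signs turned. With the median: iron list 0.056, BI662359 -0.06, Il4ra 0.0076, Muc5b -0.091, Socs3 0.27, Tnfrsf4 0.014. With the scanner ratio: Cyp2c65 0.038, Map3k9 0.5, Slc16a3 -0.023. In Cy5 alone: Hsf1 0.23, Socs3 0.054, Tat 0.22. With no background correction: Alb 0.011, Map3k9 0.045; with negative controls: Alb 0.025, Map3k9 0.081. With both channels above background on all arrays: Stat6 -0.037, from another probe. With 1 array left out: Hba-a1 -0.2 to 0.76 and the cytotoxic list -0.062 to 0.27 (lowest without day 20 of mouse 320), and Slc16a3 -0.019 to 0.17 (-0.018 and -0.0059 in 2 others, and -0.027 without mouse 305). Over all alternatives single genes kept sign and call in 3290 comparisons, lost the call in 382, gained it in 18 and turned in 22.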

Other observations

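Genes of airway and other epithelia stood far above the reference in some mice only, a pattern noticed after their values were seen. Cyp2f2, a lung cytochrome P450, had levels of -0.5, 0.17, 4.05 and 2.57 in mice 305, 310, 315 and 320 on day 25, against 0.12, 1.12, 0.29 and 0.2 on day 20. Muc5ac, an airway mucin, had levels of -0.048, 0.086, 2.21 and 1.67 on day 25, against 0.19, 0.1, 0.073 and 0.23 on day 20. The water channel Aqp5 reached 2.79 and 1.43 in mice 315 and 320 on day 25, and the desmosome gene Perp 3.83 and 1.23. High values also stood in other arrays: Cyp2f2 was at 2.71 and 3.71 in mice 305 and 310 on day 0 and at 3.74 in mouse 305 on day 15. Plet1, another epithelial gene, was at 0.32, 2.94, 3.73 and 4.14 on day 25, against 1.29, 2.79, 0.75 and 1.83 on day 20. None of the genes named in this paragraph passed the test between day 25 and day 20 (Cyp2f2 change 1.14 ± 0.94 SE, limma, adjusted p = 0.416). The mucin Muc5b, given above among the dim genes, was called higher on day 25, and its call ended without day 25 of mouse 315.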
